A study of Mus musculus with 25 samples.

Results

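The 2410152P15Rik hub is a single 10 kb bin of mouse chromosome 19, chr19:6670001-6680000 in the mm10 build, and the bins it was paired with in the deposited contact lists. A hub is used here for a bin with many listed partners. It was selected on its numbers of H3K27ac contacts: the HiChIP list of fibroblasts held 0 interactions of this bin and that of embryonic stem (ES) cells held 45, so those 2 numbers are a description and carry no test. The fall from 33 to 14 interactions in the cells labelled TKO was also known when the bin was chosen. All bin pairs that touch the bin were taken from the 9 lists, which gave 48 distinct pairs, against 144091 bins with an interaction in any list. Of the 48 pairs, 45 were in the ES H3K27ac list.

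H3K27ac, acetylation of lysine 27 on histone H3, marks active enhancers and promoters. In HiChIP, neighbouring DNA fragments of fixed nuclei are joined and those bearing a chosen mark or factor are then pulled down, so a listed contact needs both closeness and the mark on at least one end. KLF4 is a zinc-finger transcription factor that binds GC-rich and CACCC-like sequence, is one of the reprogramming factors, and belongs to the factors that keep ES cells pluripotent.

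The study followed contacts from mouse embryonic fibroblasts (MEFs) to pluripotent cells in 25 libraries of 9 groups. MEFs came from E13.5 embryos heterozygous for rtTA3, the OKSM cassette (Oct4, Klf4, Sox2 and Myc under doxycycline) and an Oct4-GFP reporter, and were taken at passage 3 for H3K27ac HiChIP (2 libraries) and Hi-C (2 libraries), which maps contacts with no pull-down. The same fibroblasts after 3 days (3 libraries, in bulk) or 6 days (4 libraries, sorted for SSEA1) of doxycycline with ascorbic acid gave KLF4 HiChIP, where the KLF4 pulled down can come from the cassette or from the cells' own gene. V6.5 ES cells in 2i medium, a single line, gave H3K27ac HiChIP (2 libraries), KLF4 HiChIP (4 libraries) and Hi-C (2 libraries). Cells labelled TKO, given as V6.5 in 2i, gave H3K27ac HiChIP without doxycycline (0 h, 3 libraries) and after 24 h of it (3 libraries). The labels do not spell TKO out, and no ES group without that label was given doxycycline, so the effect of the agent itself and that of what TKO stands for cannot be told apart.

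The HiChIP libraries held 48.7 to 181 M contacts, and those of TKO 68.3 to 109.9 M. Strength is given as the authors' CPM, the count scaled to all contacts of the same chromosome, in which the H3K27ac lists and the first 2 KLF4 replicates stop at 3. Listed HiChIP pairs also had an authors' p-value under 0.1. A pair missing from a list did not pass the list's filters, so its value is unknown and may be above 3. For some libraries no difference beyond sampling noise was detected, and they were counted as 1 sample. In TKO these were replicates 2 and 3 at 0 h and replicates 1 and 3 at 24 h. In ES KLF4 they were 1 with 2 and 3 with 4. Means and SDs are over the samples left. The labels name no batch.

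The authors' gene columns put 2410152P15Rik in the hub bin, but no RefSeq gene of GRCm38.p6 has that name and none overlaps the bin. The nearest RefSeq genes were the pseudogene Hmgb1-ps4 (chr19:6592099-6593339), 76.7 kb to the left (lower coordinates), and Rps6ka4 (chr19:6829084-6842145), 149 kb to the right (higher coordinates). The authors' peak columns mark an H3K27ac peak in the bin at both 0 h and 24 h of TKO. MEF and ES Hi-C gave the same topological domain around it, chr19:6400001-7040000, 640 kb long. Inside this domain, the 12 bins from chr19:6690001 to 6810000, next to the hub's right neighbour, had no interaction in any of the 9 lists. Listed partners on the right other than that neighbour thus began at 140 kb. Whether reads can be aligned to these 12 bins was not checked, so the lack of listed pairs cannot be read as a lack of contact.

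Over the 48 partner bins, 17 carried a gene in the authors' TKO columns, 24 genes in all, and each of the 24 was found in RefSeq. The sequences below are the 250 bases before a transcript start given by RefSeq (GRCm38.p6, chromosome 19, minus strand) for 4 of them. That start is not always the gene's outer limit, and the windows of Rps6ka4 and Kcnk4 lie inside the gene's full extent. Most of the Esrra window also lies inside its gene, which reaches chr19:6922048. The Ccdc88b window only touches its gene, which reaches chr19:6858222. Rps6ka4, Ccdc88b and Kcnk4 lie in the gene-bearing bins with the strongest ES H3K27ac contact, and Esrra is a nuclear receptor gene whose pair was in both TKO lists. Capitals mark matches to GGGNGTGG, a core of the KLF4 motif, searched on both strands (CCACNCCC on the other).
Rps6ka4 (chr19:6840628-6840877): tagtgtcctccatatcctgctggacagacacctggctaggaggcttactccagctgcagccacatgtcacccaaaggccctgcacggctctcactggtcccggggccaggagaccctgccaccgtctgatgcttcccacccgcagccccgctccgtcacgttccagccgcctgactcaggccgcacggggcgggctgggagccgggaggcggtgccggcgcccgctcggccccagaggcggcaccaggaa
Ccdc88b (chr19:6858212-6858461): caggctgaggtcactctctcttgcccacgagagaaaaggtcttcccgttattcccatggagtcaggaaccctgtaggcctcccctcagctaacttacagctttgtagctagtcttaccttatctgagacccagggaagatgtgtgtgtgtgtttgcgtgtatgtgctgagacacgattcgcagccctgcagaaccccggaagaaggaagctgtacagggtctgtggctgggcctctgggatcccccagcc
Esrra (chr19:6921809-6922058): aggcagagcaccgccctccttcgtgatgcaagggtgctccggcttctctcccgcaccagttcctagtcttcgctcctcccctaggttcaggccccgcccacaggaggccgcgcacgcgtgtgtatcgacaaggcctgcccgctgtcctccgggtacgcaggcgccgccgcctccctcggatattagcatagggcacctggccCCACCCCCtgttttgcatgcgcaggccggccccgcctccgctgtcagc
Kcnk4 (chr19:6934516-6934765): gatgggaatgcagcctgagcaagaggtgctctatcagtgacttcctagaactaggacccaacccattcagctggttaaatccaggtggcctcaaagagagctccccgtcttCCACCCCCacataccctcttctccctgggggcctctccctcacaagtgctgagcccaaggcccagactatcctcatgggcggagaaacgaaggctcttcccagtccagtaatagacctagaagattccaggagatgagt
The Esrra and Kcnk4 windows held 1 match each and the Rps6ka4 and Ccdc88b windows held 0. Of the 27 windows found for 21 of the partner genes, 7 held a match, those of Prdx5, Esrra, Catsperz, Kcnk4, Ppp1r14b, Vegfb and Fermt3, against 15.9% of all 32851 windows of that length. A match is a run of letters and not a bound site.

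In ES cells the H3K27ac contacts of the hub ran to both sides in near-equal number, 23 to the left and 22 to the right. The partner distance ran from 10 kb to 590 kb, and 23 of the 45 pairs (51.1%) spanned at least 200 kb. Over all pairs of the ES list on chromosome 19 that share was 5.77%, and over the whole list 1.48%. The bin was chosen for its many ES partners. As each is a different 10 kb bin, a high share of far pairs follows in part from that choice. Of the 40136 bins with an interaction in this list, 0 had more than the hub, whose partners had a summed mean CPM of 365.

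The strongest contacts were with the bins beside the hub, where no gene is annotated. The left neighbour, chr19:6660001-6670000, had 46.4 and 51.1 CPM in ES replicates 1 and 2, from 197 and 221 contacts. The right neighbour, chr19:6680001-6690000, had 45.9 and 42.1 CPM. At 20 kb to the left the values were 21.4 and 21.0 CPM, and at 30 kb to the left 14.1 and 16.2 CPM. Replicates lay close together at each of these 4 bins, and contact became weaker with distance.

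On the right, the contacts beyond the stretch with no interactions were led by 2 bins of the body of Rps6ka4, which encodes the stress- and mitogen-activated kinase MSK2. The bin chr19:6830001-6840000, inside the gene, had 12.01 and 15.7 CPM, and the bin before it, which holds the gene's far end and Mir5046, had 12.01 and 9.02 CPM. The bin with the gene's start in the authors' columns had 8.24 and 8.32 CPM. Ccdc88b, which encodes a coiled-coil protein of immune cells, was reached at 180 kb with 7.53 and 10.4 CPM. Kcnk4, the gene of a background potassium channel, stood at 260 kb with 8.004 and 11.6 CPM, a mean of 9.78 ± 2.51 (SD, n = 2). Its mean was thus above that of Ccdc88b, 8.97 ± 2.03 (SD, n = 2), but the replicates of the 2 pairs overlapped.

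On the left the strongest gene-bearing bin was that of Nrxn2, a synaptic adhesion gene, and the lncRNA gene Gm14965, 260 kb away, with 7.30 and 8.32 CPM. The other gene-bearing partners in the domain had 4.56 to 6.54 CPM on average. They were, by role, metabolic and redox genes (Prdx5, a peroxiredoxin, and Slc22a12, a urate transporter), regulators of transcription and translation (Esrra, and Trmt112, a cofactor of methyltransferases), cell death and signalling genes (Bad, a BH3-only protein, Gpr137, Ppp1r14b, an inhibitor of protein phosphatase, and the growth factor gene Vegfb), and Fkbp2, Dnajc4, Nudt22, Trpt1 and Catsperz. Among them the Esrra and Catsperz bin had 6.36 and 6.47 CPM, the Bad and Gpr137 bin 7.06 and 6.01 CPM, and the Ppp1r14b bin 7.30 and 5.78 CPM. The Trmt112 bin had 5.89 and 6.93 CPM, the Prdx5 bin 5.65 and 4.39 CPM, and the Fkbp2 and Vegfb bin 5.65 and 5.32 CPM. The means of these 6 bins lay between 5.02 and 6.54 CPM. The bin of Dnajc4, Nudt22 and Trpt1 had 5.65 and 3.47 CPM, and that of Slc22a12 on the left 4.94 and 4.39 CPM. Rasgrp2, an exchange factor for Rap, lay just outside the domain at 280 kb on the left, with 4.47 and 3.24 CPM.

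The farthest partners were also outside the domain. Rcor2, which encodes a corepressor of the CoREST family, lay 590 kb to the right with 3.06 and 4.39 CPM. Ehd1, an endocytic recycling gene, and the lncRNA gene Gm14963 lay 400 kb to the left with 3.53 and 4.62 CPM, and Macrod1, an ADP-ribosyl hydrolase gene, lay 380 kb to the right with 3.77 and 4.16 CPM. These 3 pairs sat near the cutoff of 3 and rest on 13 to 20 contacts in each library.

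The authors also give a ratio of each count to the count expected for its distance. In ES H3K27ac this ratio, averaged over replicates, had a median of 4.76 (2.62 to 13.3) over the 23 left partners and of 10.1 (6.95 to 16.7) over the 21 right partners beyond the stretch with no interactions, which start at 140 kb. The 14 left partners over 100 kb away had a median of 6.32. The highest ratios were those of Kcnk4 at 16.7, Rcor2 at 16.5 and the Rps6ka4 body at 15.8. The 10 partners within 100 kb had ratios of 2.62 to 7.19 with a median of 3.82. These overlapped those of the left partners over 100 kb away, 3.74 to 13.3. A listed pair needs at least 3 CPM while the expected count falls with distance, so the lowest ratio that can be listed rises with distance. The contrasts in ratio by side and by distance are thus set in part by the cutoff. In the authors' deposited table the false discovery rate was under 0.1 for 6 of the 45 pairs, those at 10 and 20 kb to the left, 10 kb to the right, and 150, 160 and 260 kb to the right. The list counts pairs by a cutoff within each chromosome, and with 1 cutoff on contacts for all chromosomes the hub kept 6 pairs in ES and 2580 bins had more.

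**Figure D1:**
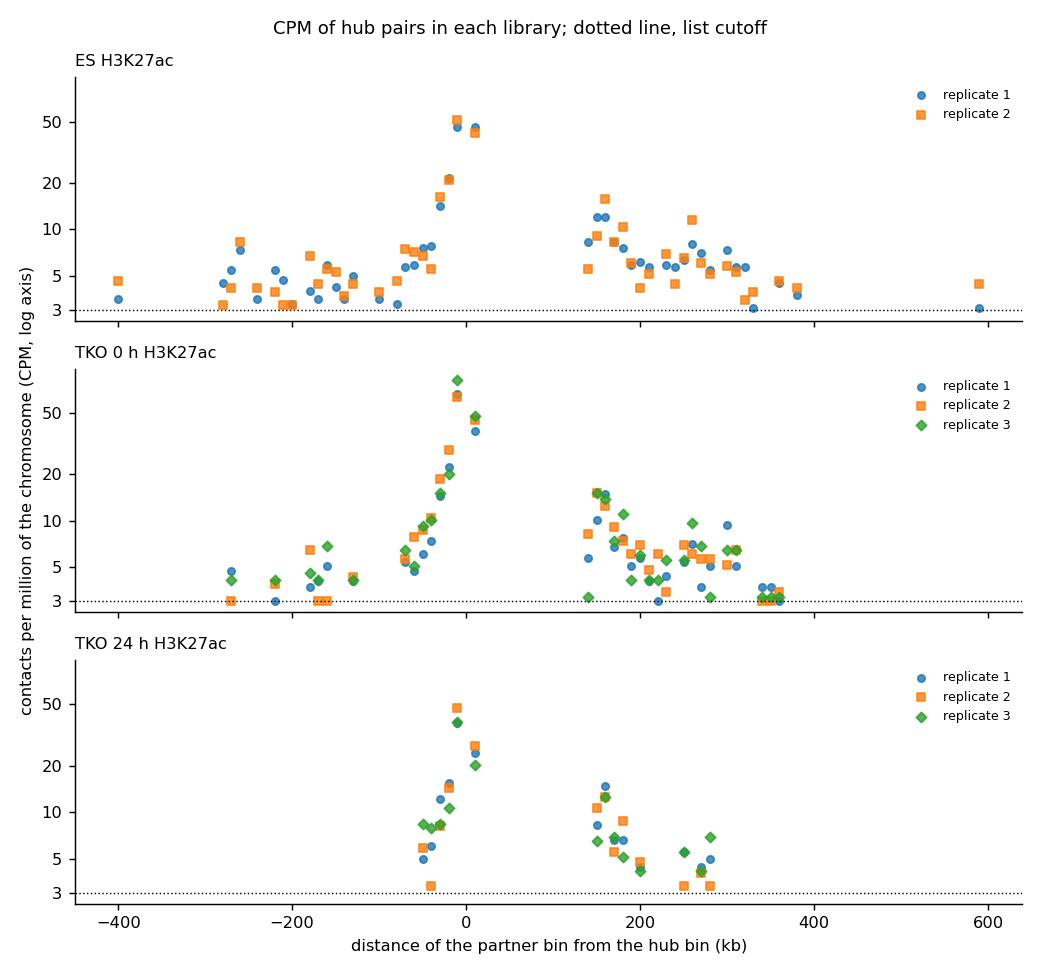
CPM (log axis) of each hub pair against the distance of the partner bin, 1 symbol per library, in ES, TKO 0 h and TKO 24 h H3K27ac; the dotted line is the list cutoff of 3. The pairs at 10 kb are the strongest in each panel, no partner lies between 10 and 140 kb on the right, and at 24 h no partner lies beyond 50 kb on the left.

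The 0 interactions in MEF H3K27ac were shared by other bins around the hub. Of the 45 ES partner bins, 20 had an interaction with any bin in the MEF H3K27ac list, and 44 had one in MEF Hi-C. Within the domain the MEF H3K27ac list held 38 pairs, none of which touched the hub, while the ES list held 142, of which 41 (28.9%) did. Pairs between 2 ES partners of the hub numbered 35 in MEF and 96 in ES. The partner bins were defined by the ES list, so higher numbers in ES follow in part from the choice. The share of all ES-list bins with an interaction in the MEF lists was not counted. The MEF H3K27ac libraries were shallower, at 75.0 and 105 M contacts against 166 and 168 M in ES, and what part depth has in the 0 was not tested. With the ES list cut to the length of the MEF list by mean CPM, 34 of its 45 hub pairs were still in it.

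The KLF4 lists held few hub pairs before pluripotency. At day 3 the list held 1, with the bin at 150 kb on the right that carries the far end of Rps6ka4, at 4.68, 4.61 and 4.02 CPM (6, 15 and 17 contacts). At day 6 the list held 0, but that list had 4047 pairs in all, against 23720 at day 3 and 24589 in ES. Among bins with an interaction in the day 3 list, 9767 of 23624 had more than the hub.

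In ES cells KLF4 HiChIP listed 7 hub pairs, each also an ES H3K27ac pair. Those with the left and right neighbours led: the left had 16.7, 15.2, 18.5 and 19.3 CPM in replicates 1 to 4, and the right 19.0, 16.01, 18.5 and 16.6 CPM. The bin 20 kb to the left had 7.67, 13.7, 8.24 and 7.32 CPM, with replicate 2 above the rest. The Rps6ka4 region and Ccdc88b followed at lower levels. The bin inside Rps6ka4 had 4.97, 3.05, 6.18 and 3.85 CPM, the bin with its start 3.16, 3.81, 3.09 and 4.24 CPM, and the Ccdc88b bin 4.06, 4.57, 2.06 and 3.85 CPM. The last of the 7, in the body of Nrxn2 at 170 kb on the left, had 3.61, 3.81, 1.03 and 3.85 CPM. In that list 339 of 25332 bins had more pairs than the hub. No hub pair was in more than 1 of the 3 KLF4 lists, so none could be tested between stages.

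Hi-C, which needs no mark or factor, listed a handful of hub pairs, and different ones in each cell type. The Hi-C lists start at a signal of 15, on another scale than the HiChIP CPM, and at an authors' p-value under 0.01. The HiChIP lists start at 3 CPM and a p-value under 0.1, so numbers of pairs cannot be compared between the 2 assays. ES Hi-C listed 4, all on the right from 140 to 170 kb, across Rps6ka4 and the bin before it. Their counts in replicates 1 and 2 were 14 and 16, 28 and 20, 19 and 28, and 15 and 18, in order of distance. MEF Hi-C listed 2, both on the left, at 180 kb with 11 and 13 contacts and at 50 kb with 16 and 16 contacts. All 6 were also ES H3K27ac pairs, and none was in both Hi-C lists, so no test of MEF against ES was possible. By Hi-C the hub was not a leading bin, as 55660 of the 111213 bins of the ES list had more pairs.

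**Figure D2:**
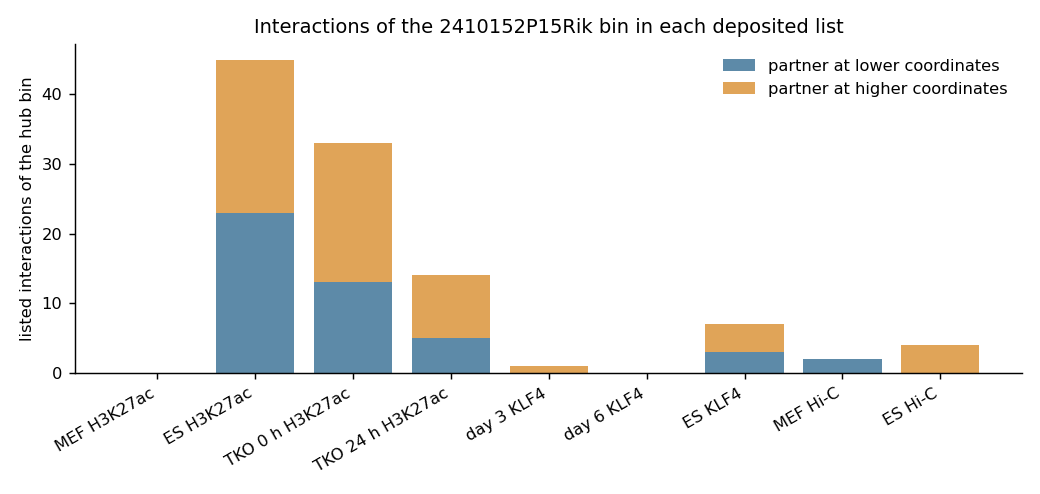
Number of listed interactions of the hub bin in each of the 9 lists, split by whether the partner lies at lower (blue) or higher (orange) coordinates. The 45 pairs of ES H3K27ac stand above the 33 and 14 of TKO, and the KLF4 and Hi-C lists hold 0 to 7. The Hi-C lists have other filters than the HiChIP lists, so their numbers cannot be compared.

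**Figure D3:**
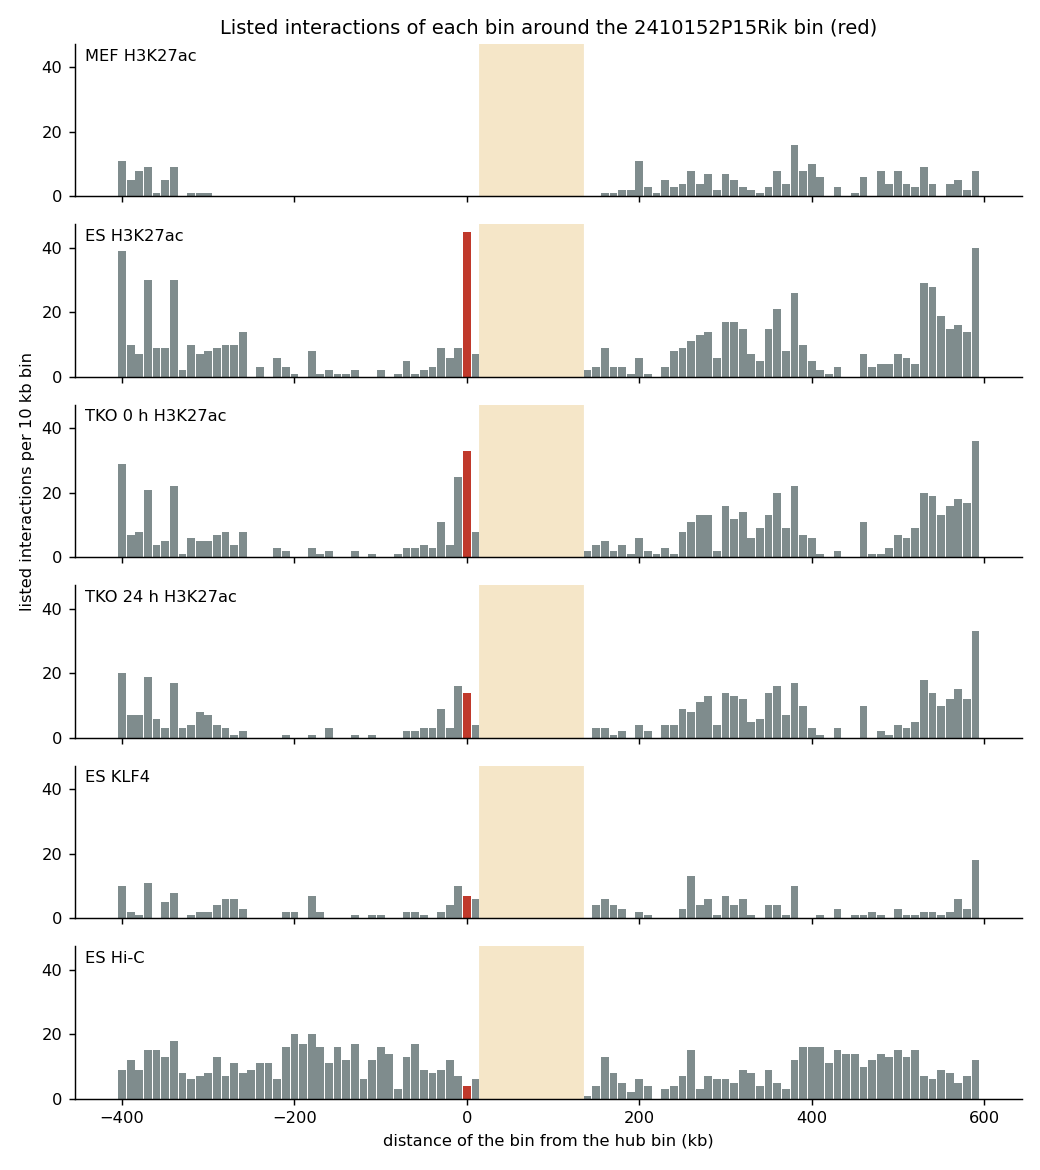
Listed interactions of every 10 kb bin from 400 kb left to 590 kb right of the hub (red) in 6 of the lists, with the stretch of 12 bins with none shaded. The red bar is the tallest in the ES H3K27ac panel at 45, is missing in MEF H3K27ac, and in TKO is shorter at 24 h (14) than at 0 h (33), where the left neighbour goes from 25 to 16.

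In the TKO cells at 0 h the hub shared most of its partners with ES cells. Of its 33 pairs, 30 were also ES pairs, which is 66.7% of the ES pairs and 90.9% of the 0 h pairs. The share of all 0 h pairs that were also in the ES list was not counted. The bin was chosen for its high ES number, which favours such an overlap, so it is a description. The 3 others, at 220, 340 and 350 kb on the right, include the bin of Fermt3, the gene of the integrin activator kindlin-3. None of the 4 ES partners outside the domain was listed. In the 0 h list 10 of 49460 bins had more interactions than the hub, but with 1 contact cutoff for all chromosomes it had 6 pairs and 3362 bins had more.

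After 24 h of doxycycline the list held 14 hub pairs, each also in the 0 h list, and 606 of 47307 bins had more. With 1 contact cutoff for all chromosomes the hub had 4 pairs at 24 h, against 6 at 0 h, and 6591 bins had more. The list as a whole went from 93248 to 84256 pairs, and 67728 pairs were in both lists. With the 0 h list cut to the 24 h length by mean CPM the hub still had 27 pairs. The left side went from 13 to 5 pairs and the right side from 20 to 9. The farthest left partner was at 270 kb at 0 h and at 50 kb at 24 h. On the right the farthest partner was at 360 kb at 0 h and at 280 kb at 24 h.

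The 19 pairs missing at 24 h were mostly weak and far at 0 h, 17 of them beyond 100 kb. Their 0 h means ran from 3.19 to 7.62 CPM with a median of 4.43, against 4.74 to 69.6 CPM with a median of 8.65 for the 14 that stayed listed. Their median distance was 220 kb against 155 kb. Gene-bearing bins among the 19 numbered 6: Slc22a12, Trmt112, Kcnk4, Ppp1r14b, Fkbp2 with Vegfb, and Fermt3. Kcnk4 had 7.07, 6.05 and 9.66 CPM at 0 h, and Ppp1r14b had 9.43, 5.19 and 6.44 CPM. The Fkbp2 and Vegfb bin had 5.05, 6.49 and 6.44 CPM, and the Trmt112 bin 4.38, 3.46 and 5.52 CPM. Ppp1r14b was thus listed with a library at 9.43 CPM at 0 h and was missing at 24 h, while Slc22a12, at 4.04, 4.32 and 4.14 CPM, and Fermt3, at 3.70, 3.03 and 3.22 CPM, were near the cutoff from the start. The gene-bearing partners that stayed listed were Rps6ka4, Ccdc88b, Esrra with Catsperz, and Bad with Gpr137. Because values under the filters are not in the lists, the size of the change of the 19 pairs is unknown.

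By the authors' peak columns, 7 of the 14 partner bins that stayed listed had an H3K27ac peak at 0 h and 6 at 24 h. Of the 19 others, 9 had one at 0 h and 7 at 24 h. The 3 bins with a peak at 0 h only were those at 140, 150 and 220 kb on the right. The hub bin and both its neighbours carried a peak at both times.

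The strength of the 14 pairs in both lists could be tested. The left neighbour had 66.0, 64.0 and 82.3 CPM at 0 h and 38.0, 47.7 and 38.4 CPM at 24 h. The right neighbour had 38.4, 45.0 and 47.8 CPM at 0 h and 24.2, 26.8 and 20.3 CPM at 24 h. The bin 20 kb to the left had 22.2, 29.0 and 20.2 CPM at 0 h and 15.4, 14.3 and 10.6 CPM at 24 h. In each of these 3 pairs every 24 h library was under every 0 h library.

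These 3 pairs were the ones that edgeR's quasi-likelihood test called, with Benjamini-Hochberg adjustment over all 67728 pairs present in both lists. The log2 change was -0.64 (SE 0.12, adjusted p = 6.29e-05) for the left neighbour, -0.75 (SE 0.14, adjusted p = 7.07e-05) for the right neighbour and -0.73 (SE 0.19, adjusted p = 0.00776) for the bin 20 kb to the left. The SE printed with edgeR changes is the size of the log2 change over the square root of edgeR's F statistic. It can understate the uncertainty, as DESeq2 gave SEs of 0.19, 0.24 and 0.30 for the same pairs. So 3 of 14 hub pairs were lower and 0 higher, where over all pairs 2.62 percent were called and 2.04 percent were called lower. The 14 pairs share the hub bin and are not independent. The bin was chosen with its fall in TKO known from the same libraries, so these calls and shares are a description. The call at 20 kb was lost without replicate 2 of 0 h (adjusted p = 0.122) or replicate 3 of 24 h (adjusted p = 0.123), and with DESeq2 only the left neighbour was called (adjusted p = 0.0344), the right neighbour having an adjusted p of 0.056.

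None of the other pairs passed the test. The bin 30 kb to the left had 14.5, 18.6 and 15.2 CPM at 0 h and 12.1, 8.07 and 8.32 CPM at 24 h, a log2 change of -0.70 (SE 0.22, adjusted p = 0.0595 by edgeR). It passed without TMM scaling (adjusted p = 0.0151). The Rps6ka4 region was uneven. The bin with the gene's far end had 10.1, 15.1 and 15.2 CPM at 0 h and 8.26, 10.6 and 6.47 CPM at 24 h (log2 change -0.51, SE 0.23, adjusted p = 0.285 by edgeR). The next bin, inside the gene, had 14.8, 12.5 and 13.8 CPM at 0 h and 14.9, 12.5 and 12.5 CPM at 24 h, and the groups overlapped (log2 change 0.02, SE 0.21). The bins of the Rps6ka4 start, Ccdc88b, Esrra and Bad had log2 changes of -0.20, -0.20, -0.26 and -0.23, each with an SE from 0.25 to 0.27, and overlapping libraries. DESeq2 gave larger SEs for these pairs, 0.49, 0.46, 0.57 and 0.60. The Esrra bin, for one, had 5.39, 6.92 and 5.52 CPM at 0 h and 5.50, 3.30 and 5.55 CPM at 24 h. Of the pairs with no gene, the one at 40 kb on the left had 7.41, 10.4 and 10.1 CPM at 0 h and 6.05, 3.30 and 7.86 CPM at 24 h (log2 change -0.63, SE 0.26, adjusted p = 0.281 by edgeR). The remaining 3, at 50 kb on the left and 200 and 280 kb on the right, had log2 changes of -0.19, -0.37 and 0.16.

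Over the 14 pairs the median log2 change was -0.32, against 0.01 over all 67728 pairs, and 12 of 14 were below 0 against 48.9% of all pairs. The 6 pairs within 50 kb had a median of -0.67 with 3 called, and the 8 from 140 kb on a median of -0.22 with 0 called. The difference between near and far pairs was not tested. The pairs tested are those strong enough to stay listed at 24 h, so they do not stand for the 33. They share the hub bin, whose fall was known when it was chosen, so the 12 of 14 is a description too.

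**Figure D4:**
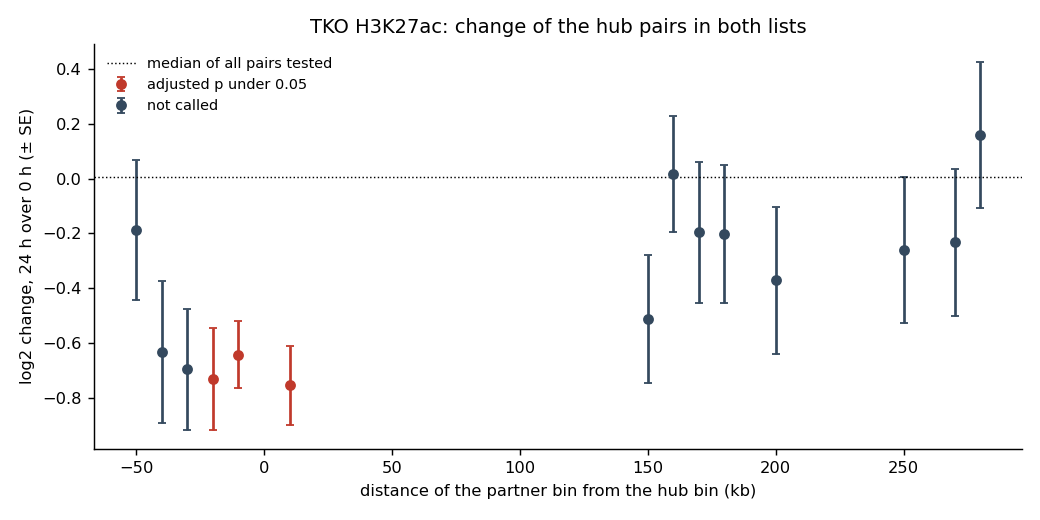
Log2 change (24 h over 0 h, edgeR) of the 14 hub pairs in both TKO lists against the distance of the partner bin. Bars are ± the SE derived from edgeR's F statistic, which was smaller than that of DESeq2. Red points passed an adjusted p of 0.05 and the dotted line is the median of all pairs. The 3 red points lie within 20 kb of the hub at -0.75 to -0.64, and the points from 150 kb on lie between -0.51 and 0.16.

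Summed over the 14 pairs, the hub had 214, 245 and 254 CPM in replicates 1 to 3 at 0 h and 156, 159 and 146 CPM at 24 h. The 2 groups did not overlap, and the level at 24 h was 66.9% of that at 0 h. The means were 232 ± 25.1 CPM and 155 ± 5.59 CPM (SD, n = 2 each after joining), with an exact two-sided permutation p of 0.333, the smallest that 2 against 2 samples allow. With all 3 libraries kept apart the p was 0.1, again the smallest possible.

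Few other pairs of the domain were called by the same test, though the difference from the hub pairs was not itself tested. Of its 70 tested pairs without the hub, 1 was called, lower at 24 h, with a median log2 change of 0.01. The bins from 70 kb left to 10 kb right of the hub, the hub itself left out, had 12 tested pairs among them. Of these, 0 were called, with a median of -0.12. The pair of the hub's left and right neighbours, which spans the hub, had a log2 change of -0.53 (SE 0.19, adjusted p = 0.122 by edgeR). The 47 pairs among the gene-rich bins on the right had a median of 0.04 with 0 called. On chromosome 19, 50 of 3960 pairs without the hub were called, 38 of them lower.

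The change in number was also set beside that of other bins with at least 20 interactions in ES H3K27ac. There were 250 such bins, the hub included, 84 of them on chromosome 19 and 59 with 0 interactions in MEF H3K27ac. From 0 h to 24 h, 188 had fewer interactions, 24 as many and 38 more, with a median change of -2. The hub lost 19, and no other bin lost as many. Its fall was known when it was chosen and the bins were taken by their ES number, so this order is a description and supports nothing. By the log2 ratio of the numbers, with 1 added to each, the hub stood at -1.18 against a median of -0.16, and 2 bins, the hub among them, were that low.

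By the correlation of log2(interactions + 1) over the 9 lists, the bins most like the hub were that of Mycn, a MYC family gene (chr12:12940001-12950000, Pearson's r = 0.978), a bin of chromosome 7 (chr7:80010001-80020000, r = 0.974), 1 bin each of chromosomes 18 and 17 (r = 0.972 for both), none of these 3 with a gene in the TKO columns, and that of Zscan10, a zinc-finger gene of pluripotent cells (chr17:23600001-23610000, r = 0.968). The lists share cutoffs and depth, and 9 lists are few. The correlation includes the MEF, ES and TKO numbers, so a like pattern in these follows from the choice. The Mycn bin had 0 interactions in MEF H3K27ac, 23 in ES, 16 in TKO at 0 h and 9 at 24 h, and the Zscan10 bin had 2, 22, 20 and 16. The bins of chromosomes 7, 18 and 17 with no gene went from 21 to 18, from 15 to 15 and from 25 to 19 between 0 h and 24 h.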

How the data were processed

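All 25 libraries (21 HiChIP, 4 Hi-C) entered as 9 deposited lists of 10 kb bin pairs. Per the submitters' processing notes, reads were aligned with Bowtie2 2.2.3 and the build is mm10; the contact caller and the test behind the p-value are not given in the sources used here. Per the file headers, the authors deposited raw counts, a CPM, a distance-normalized ratio and 1 p-value and FDR per pair. The deposited HiChIP CPM is scaled to the contacts of the chromosome, as the values show. The deposited Hi-C signal, also named CPM in the header, uses constants of unstated origin, so Hi-C depth is unknown and raw Hi-C counts are printed. The authors' domain score in the deposited domain lists was not used beyond the domain limits. Listed HiChIP pairs had a p-value under 0.1, and listed Hi-C pairs had a p-value under 0.01 and a signal of at least 15.

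Hub pairs were found by the gene column and counted per list. Libraries with no detected difference beyond sampling noise were joined. The check was a chi-square test over pairs at 2 or more times the cutoff. Joining needed a p of 0.05 or more while another pair of libraries in the group differed. For TKO replicates 2 and 3 at 0 h that p was 0.0696, near the limit. Pairs in both TKO lists were tested on counts with edgeR 4.0.16 (R 4.3.3, filterByExpr, TMM, quasi-likelihood, Benjamini-Hochberg adjustment over all pairs tested). Those with an adjusted p under 0.05 were called. In simulated counts with a common dispersion, 200 pairs were changed 2-fold. The step recovered 136 of them (68%) with 4 false calls, so true changes can be missed. DESeq2 1.42.0 was an alternative. Tables used Python 3.11.15, pandas 2.3.3, numpy 2.4.6 and scipy 1.17.1, figures matplotlib 3.10.9.

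Pairs named were the 10 strongest and 3 farthest in ES H3K27ac, every TKO call, and every KLF4 and Hi-C pair, with partner genes from the TKO columns. Other TKO pairs and genes were named after their values were seen. The bin, lists and tests were chosen with earlier results of these data known. Replicates are separate samples by the labels, but which culture each came from is not stated, so no p-value speaks for other cultures. The edgeR p-values also draw on a dispersion estimated over all pairs tested. They thus do not measure only the spread of a pair between these samples. Ligation products amplified by PCR are not independent molecules.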

Additional observations from a re-analysis of the deposited data

Results flagged for a closer look

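Of the 7 hub pairs in the ES KLF4 list, 2 had 1 library far from the other 3, where chance alone picks out about 1 group in 20. For the pair with the Nrxn2 body at 170 kb on the left, replicate 3 had 1.03 CPM, from 2 contacts, against 3.61, 3.81 and 3.85 CPM. For the pair with the bin 20 kb to the left, replicate 2 had 13.7 CPM, from 18 contacts, against 7.67, 8.24 and 7.32 CPM. Replicate 2 was the shallowest of the 4, with 51.9 M contacts.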

How the results depend on the processing

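The numbers of listed pairs depended on the cutoffs. With at least 5 CPM in every library the hub had 24 pairs in ES H3K27ac, 16 in TKO 0 h, 8 in TKO 24 h, 0 in day 3 KLF4 and 3 in ES KLF4, and with a signal of at least 25 it had 0 in MEF and 0 in ES Hi-C. With the authors' FDR under 0.1 it had 6, 6, 2, 0 and 0 in those HiChIP lists, 0 in MEF Hi-C and 2 in ES Hi-C. With 1 contact cutoff for all chromosomes it had 6, 6, 4, 0 and 2, and 1 in each Hi-C list. With 1 bin added on either side it had 58 in ES H3K27ac, which is then under TKO 0 h with 63, 31 in TKO 24 h, 20 in ES KLF4, 10 in MEF Hi-C and 16 in ES Hi-C. With anchors at least 50 kb apart 9 remained in TKO 24 h and 4 in ES KLF4. Cut to the day 6 list's length, day 3 KLF4 had 0 and ES KLF4 3, and ES Hi-C cut to the MEF length had 2. TKO 24 h stayed under TKO 0 h, and MEF H3K27ac at 0, under each of these.

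Among TKO strength tests DESeq2 called 1 hub pair. It gave an adjusted p for 3387 pairs and for 2 of the 14. Over all pairs it called 121, contact totals without TMM 2825 and chromosome totals 2771, against 1774, and calls with 1 library left out ran from 1028 to 1205, with 2 to 4 hub pairs called. Without TMM the median of all pairs moved to -0.10, and 2670 of the 2825 calls were lower (1384 of 1774 with it). The summed log2 change was -0.58 and ran from -0.69 to -0.56 with 1 library left out. Signs turned for 3 uncalled pairs. The pair inside Rps6ka4 was at -0.091 without TMM and -0.075 with chromosome totals, and ran from -0.064 to 0.11 with 1 library left out, below 0 without 0 h replicate 2 or 24 h replicate 1. The pair at 280 kb ran from -0.15 to 0.46 in the same way, below 0 without replicate 3 of 0 h or of 24 h, and the Esrra pair from -0.40 to 0.0075, above 0 without 24 h replicate 2. The cause of these changes was not tested.

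With the replicate block, all libraries apart, 3 hub pairs were called of 2024 in all. Same-numbered TKO libraries did not deviate together (correlations 0.004, 0.005 and -0.007). Libraries within a TKO group differed by little more than sampling noise, so this check cannot tell whether the numbers are a pairing. The fits planned for KLF4 stages and for Hi-C gave no value, as no hub pair was in both lists.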
